A study of Mus musculus with 22 samples.

Results

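Hmox1, the gene of the inducible heme oxygenase 1, was followed across 22 arrays of the anterior neural tube of mouse embryos exposed to arsenic or water. It was found by its gene symbol in the array annotation, where 1 of 10500 probes carries it; that probe was among the 7830 tested, which stood for 7187 genes. At GD8:15 (gestational day 8, hour 15), 3 h after the second injection, Hmox1 was 3.43-fold higher on arsenic than on control arrays. At GD9:00, 12 h after it, the signal was high on 2 of 3 arsenic arrays and at the control level on the other one. At GD9:12, after 24 h, the signal was low in both arms, with means 0.01 apart on the log2 scale.

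Heme oxygenase 1 opens the heme ring and releases biliverdin, carbon monoxide and ferrous iron; biliverdin reductase then makes bilirubin, and ferritin stores the iron. Most cells hold little Hmox1 transcript at rest, because the repressor BACH1 sits on its enhancers. Heme, metals including arsenic, and oxidants release BACH1 and bring in the activator NRF2, which makes Hmox1 a widely used marker of oxidative and metal stress. Its sister enzyme, from Hmox2, is made constitutively.

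All embryos were Folr2-/-, so they lacked a folate-binding membrane protein, and no array came from a wild-type embryo. The arsenic arm came from dams injected intraperitoneally with sodium arsenate at 9.6 mg arsenic per kg on GD7 and again on GD8, both at hour 12; the control arm came from dams given water at 10 µL per g on the same schedule. GD8:15 had 4 arsenic and 4 control arrays, GD9:00 had 3 arsenic and 4 control arrays, and GD9:12 had 4 arsenic and 3 control arrays. RNA of each dissected tissue was amplified before labelling, and nothing in the labels ties an array to its own dam, so the p-values cover only the spread among these arrays, part of which may be technical.

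The deposited intensities ran from 56 to 85027 once 838 placeholder values of 1 or 2 were set aside, and array medians ran from 123 to 291. Folr2 itself was at percentile 2.93 of mean signal, with group means of 6.85 to 7.15 on the log2 scale; whether its probe lies in the deleted part is not known here. All 14 neural tube markers on the array passed the filter on dim probes, and they include Sox2, Otx2, En1 and Zic1. At GD8:15 their summed level, weighted towards bright probes, was 7022 to 11070 on arsenic and 9846 to 12080 on control arrays. Of the 14, 5 had positive and 9 negative differences at that stage (median -0.06), and 0 were called. Sox2 differed there by -0.91 ± 0.31 SE and En1 by -1.58 ± 0.39, Otx2 by -0.13 ± 0.16 and Zic1 by -0.12 ± 0.23. Of the macrophage markers, 8 of 17 were below the filter on dim probes, which took out the lowest 25%, Adgre1 and Ptprc among them. The other 9 passed, with mean log2 signals from 7.23 (Aif1) to 9.46 (Spi1). Heart and muscle markers were also present: the summed level of the 14 on the array was 5942 to 13120 on arsenic and 18640 to 37290 on control arrays at GD8:15, and 10930 to 26740 on arsenic and 5155 to 21620 on control arrays at GD9:00. Of the 10 tested, 1 had a positive difference at GD8:15 (median -0.28) and 10 at GD9:00 (median 0.33), and 0 were called. The sums weigh bright probes most, here Myl7 and Actc1, which differed by -1.82 ± 0.52 SE and -1.575 ± 0.526 at GD8:15. Des and Myl3 differed there by -0.03 ± 0.088 and -0.04 ± 0.13.

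At GD8:15 the deposited Hmox1 intensities were 1043, 599, 390 and 888 on arsenic replicates 1 to 4, against 203, 221, 134 and 239 on control replicates 1 to 4. Every arsenic array lay above every control, and the lowest of them was arsenic replicate 3. After quantile normalisation the log2 intensities were 10.15, 9.33, 8.31 and 9.91 on the arsenic arrays and 7.68, 7.65, 7.57 and 7.69 on the controls. The arsenic mean was 9.42 ± 0.82 (SD, n = 4), and the control mean 7.65 ± 0.056 (SD, n = 4). Arsenic arrays thus spread over 1.84 log2 units, and controls over 0.12.

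**Figure D1:**
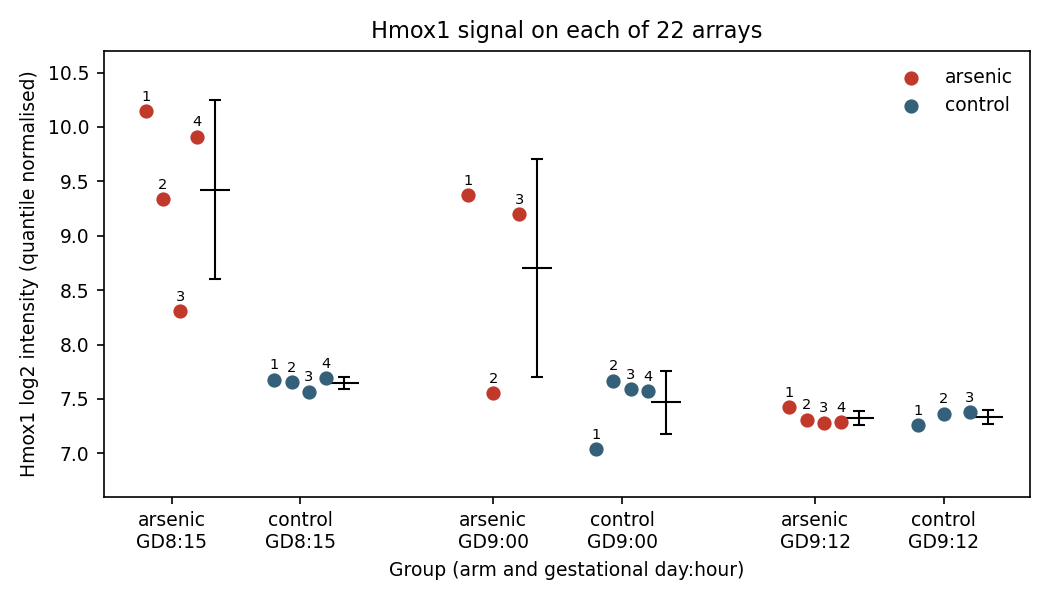
Quantile-normalised log2 intensity of Hmox1 (y axis) on each array, by arm and stage (x axis); numbers are replicates, bars show the mean and SD. All 4 arsenic arrays at GD8:15 lie above all controls, 2 of 3 do at GD9:00, and the arms coincide at GD9:12.

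The difference at GD8:15 was 1.78 ± 0.35 SE on the log2 scale (95% interval 1.05 to 2.51). It was the 3rd largest difference of the 7830 tested probes and had the 6th lowest p. The limma p was 7.11e-05 and the adjusted p 0.0927, which missed the threshold of 0.05; 0% of probes passed it in this comparison. The exact permutation test on the Hmox1 values alone gave p = 0.0286 (two-sided), the smallest that 4 against 4 arrays allow. Every arsenic array lay above every control for 1.92% of tested probes at this stage (2.41% at GD9:00 and 2.17% at GD9:12).

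The probes with a larger difference were those of Jdp2, a repressor of AP-1, and Gucy2c, the intestinal guanylate cyclase receptor. Jdp2 differed by 2.13 ± 0.54 SE, with 4 of 4 arsenic arrays above the controls. Gucy2c differed by 2.09 ± 1.27 SE, and this came from 1 array, arsenic replicate 1 at 15.83, while the other arsenic arrays lay at 6.90 to 7.12. The means of Gucy2c in the other groups were 6.94 to 7.12. It thus passed the filter on dim probes, and entered this ranking, only through that array.

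On the arrays themselves, Hmox1 stood at percentile 91.5, 86.2, 73.6 and 90.2 of all measured probes on arsenic replicates 1 to 4, and between percentiles 52.3 and 57.4 on the 4 controls. A control signal near the array median is low on this platform: the first percentile of these control arrays was 61 to 143, and their median 128 to 219. Arsenic replicate 3 had the highest floor of all 22 arrays, with a first percentile of 222 and a median of 291. When the first percentile of each array was subtracted before normalisation, the Hmox1 difference was 2.72 ± 0.59 SE (adjusted p = 0.211).

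**Figure D2:**
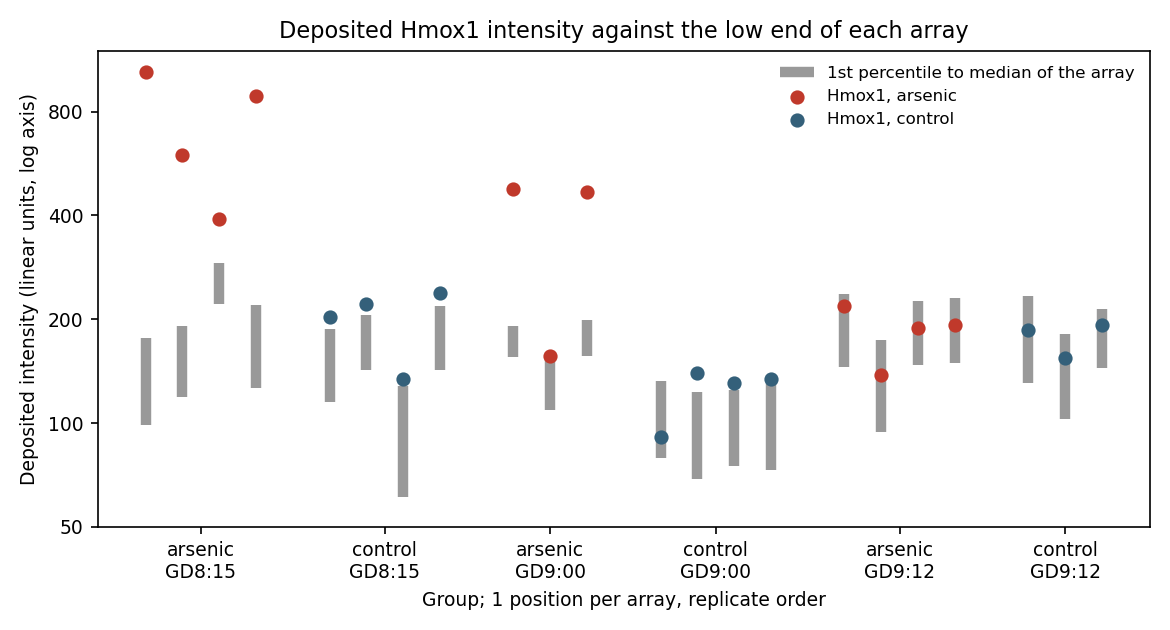
Deposited Hmox1 intensity (points, log axis) on each array, with the span from the first percentile to the median of that array (grey bars). Arsenic arrays at GD8:15 run from 390 to 1043 and stand above their bars, whereas control arrays lie near or inside theirs.

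Leaving out arsenic replicate 3 at GD8:15 raised the difference to 2.19, and limma then called it (adjusted p = 0.00678). That was the lowest arsenic array, so the rise follows from the choice and is no separate support. Without arsenic replicate 1 the difference was 1.54, and 2 of 22 fits with 1 array left out called it. The sample titles end in numbers that fall into separate runs, and the labels do not say what the numbers are. Taken as a possible batch, the run of the 4 arsenic arrays at GD8:15 held 2 of the controls, and within it the difference was 1.74 ± 0.45 SE (adjusted p = 0.534). The summed heart and muscle markers given above, weighted towards Myl7 and Actc1, also separated the arms here, and their part in the Hmox1 result was not tested.

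Of 4 measured sex-linked genes, 2 also separated the arms at GD8:15. Xist, the RNA that coats the inactive X chromosome of females, was 8.43 ± 0.55 on arsenic and 7.06 ± 0.033 on control arrays (SD, n = 4 each). The Y-linked Eif2s3y was 7.20 ± 0.078 and 7.70 ± 0.062 (SD, n = 4 each), with no overlap for either gene. The Y-linked Kdm5d and Uty overlapped between the arms, with differences of -0.11 ± 0.48 SE and -0.13 ± 0.12. At GD9:00 Xist again separated the arms, at 10.07 ± 0.29 on arsenic (SD, n = 3) and 7.53 ± 0.79 on control arrays (SD, n = 4), while Eif2s3y overlapped. Arsenic and an imbalance of embryo sex cannot be told apart at these stages. Across arrays, arsenic replicates 1 and 3 at GD9:00 were high for both Xist (9.77 and 10.35) and Hmox1 (9.37 and 9.20). Arsenic replicate 2 there had Xist at 10.08 and Hmox1 at 7.55, and control replicate 1 at GD9:12 had Xist at 11.34 and Hmox1 at 7.26. Control replicate 1 at GD9:00 had Xist at 8.71 and Eif2s3y at 7.06, and Hmox1 at 7.04, the lowest of all controls.

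At GD9:00 the deposited Hmox1 intensities were 478, 156 and 468 on arsenic replicates 1 to 3, against 91, 140, 131 and 134 on control replicates 1 to 4. On the normalised log2 scale these were 9.37, 7.55 and 9.20 in the arsenic arm and 7.04, 7.67, 7.59 and 7.57 in controls. Arsenic replicates 1 and 3 stood well above every control, and replicate 2 fell inside the control range. The group means were 8.71 ± 1.00 (SD, n = 3) and 7.47 ± 0.29 (SD, n = 4).

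The difference at GD9:00 was 1.24 ± 0.38 SE (2.36-fold, 95% interval 0.45 to 2.03), and it did not pass (limma adjusted p = 0.264, unadjusted p = 0.00393; 0% of probes called). The exact permutation p was 0.229, where 3 against 4 arrays can reach 0.0571. With the first percentile of each array subtracted it was 2.34 ± 0.63 SE (adjusted p = 0.232), so the fold depends on how the floor is treated. Without arsenic replicate 2 the difference was 1.82 and was called (limma adjusted p = 0.0388). That was the lowest arsenic array, so the rise follows from the choice and is no separate support. Without arsenic replicate 1 the difference was 0.92, and only 1 of 22 fits with 1 array left out called it. Under the scaling of the authors arsenic replicate 2 lay above all 4 controls, as 156 against at most 140. Its array median was 153 against 123 to 132 in controls. With that scaling the difference was 1.42, beside a median of 0.43 over all probes, and the exact permutation p was 0.0571, the smallest allowed.

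The lowest control at GD9:00, replicate 1, was also low for probes with neighbouring numbers: the 100 numbered nearest to Hmox1 were 0.55 lower there (median deviation, log2) than their means over all arrays. On the other 21 arrays this median lay between -0.10 and 0.15. With a running median over neighbouring probes subtracted from every array, the difference at GD9:00 was 1.22 ± 0.36 SE. Whether probe numbers follow positions on the slide is not known here.

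At GD9:12 the deposited intensities were 218, 138, 189 and 192 on arsenic replicates 1 to 4, against 186, 154 and 192 on control replicates 1 to 3. The normalised means were 7.32 ± 0.067 (SD, n = 4) and 7.33 ± 0.065 (SD, n = 3), and the groups overlapped. The difference was -0.01 ± 0.38 SE, with a 95% interval from -0.80 to 0.78 (limma adjusted p = 1, exact permutation p = 0.857; 0% of probes called). The upper bound lies below the lower bound of the interval at GD8:15. Fitted on the 7 arrays of this stage alone, the standard error was 0.089, since limma otherwise gives a probe 1 spread for all groups, and the SDs of Hmox1 ran from 0.056 to 1.00.

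**Figure D3:**
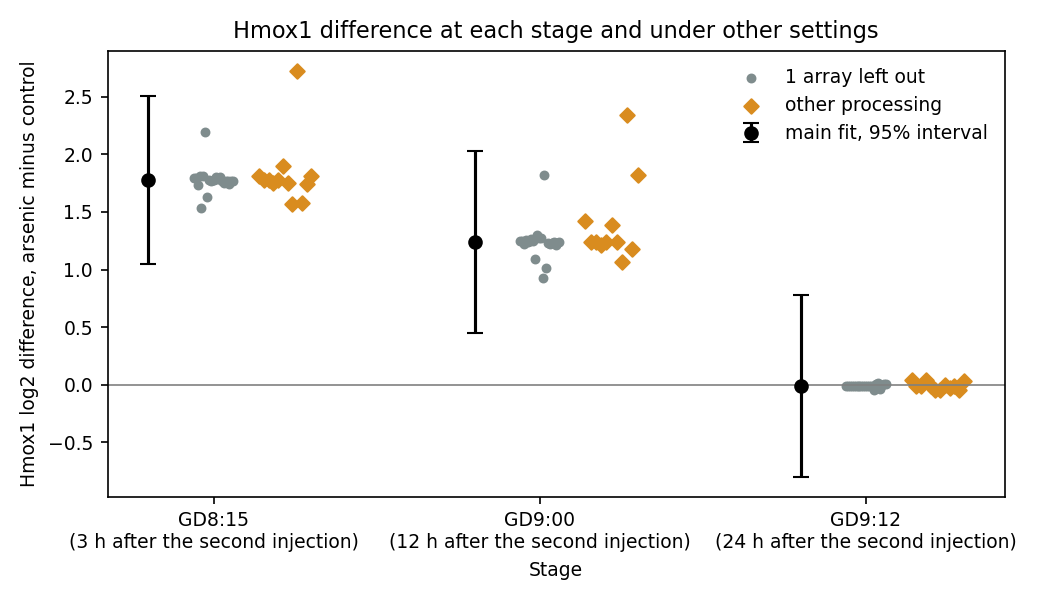
Hmox1 log2 difference, arsenic minus control (y axis), at each stage: the main estimate with its 95% interval, the estimates with 1 array left out, and those under other processing. Values stay above 1.5 at GD8:15, spread from 0.92 to 2.34 at GD9:00, and stay within 0.05 of 0 at GD9:12.

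Ordered by level, the groups ran from arsenic GD8:15 (9.42) and arsenic GD9:00 (8.71) to control GD8:15 (7.65), control GD9:00 (7.47), control GD9:12 (7.33) and arsenic GD9:12 (7.32). The highest pair differed by -0.72 ± 0.38 SE (GD9:00 minus GD8:15, limma adjusted p = 0.329; 4.21% of probes called), less than the SD within either. In total 6 of 11 arsenic arrays lay above the highest of the 11 controls, which was 7.69. Within the control arm no stage difference passed: Hmox1 differed by -0.18 ± 0.35 SE for GD9:00 minus GD8:15, -0.13 ± 0.38 for GD9:12 minus GD9:00 and -0.31 ± 0.38 for GD9:12 minus GD8:15 (limma adjusted p = 0.769, 0.854 and 0.678). In these comparisons 15%, 11.2% and 7.71% of probes were called.

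Within the arsenic arm Hmox1 fell between the first and the last stage: it fell by 2.10 ± 0.35 SE (4.29-fold lower at GD9:12 than at GD8:15, limma adjusted p = 0.000725). Lower calls made up 6.59% of probes in this comparison, and Hmox1 had the 14th lowest difference of the 7830. From GD9:00 to GD9:12 it fell by 1.38 ± 0.38 SE (adjusted p = 0.0465; 1.98% of probes called lower). The second call ended without arsenic replicate 1 at GD9:00, at a difference of -1.07 (adjusted p = 0.225), and it held in 5 of 22 fits with 1 array left out. Arsenic arrays of GD8:15 and GD9:12 fall into different runs of title numbers, and with the run as a block the first difference was -1.99 ± 0.76 SE (adjusted p = 0.37).

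Whether the arsenic effect itself changed between stages was tested directly, and no test passed over all probes. The effect at GD8:15 exceeded that at GD9:12 by 1.79 ± 0.51 SE (unadjusted p = 0.00259, limma adjusted p = 0.8), the 8th largest difference of the 7830. The effect at GD9:00 exceeded that at GD9:12 by 1.25 ± 0.53 (adjusted p = 0.767), and the effects at GD8:15 and GD9:00 differed by 0.54 ± 0.51 (95% interval -0.54 to 1.61, adjusted p = 0.84). The F test over the 3 stages gave F = 6.28 (unadjusted p = 0.00843, adjusted p = 0.692). Averaged over the stages the Hmox1 effect was 1.00 ± 0.21 SE, which had the second lowest p of all probes (0.00016) at an adjusted p of 0.591; 0% of probes were called in any of these tests.

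Hmox2, the only other measured gene of heme breakdown, was near its controls throughout. At GD8:15 its log2 mean was 7.39 ± 0.18 on arsenic and 7.46 ± 0.15 on control arrays (SD). The GD9:00 means were 7.33 ± 0.17 on arsenic and 7.38 ± 0.12 on control arrays, and the GD9:12 means 7.46 ± 0.24 on arsenic and 7.40 ± 0.17 on control arrays. The differences were -0.07 ± 0.13 SE, -0.05 ± 0.14 and 0.05 ± 0.14, and none passed (limma adjusted p = 0.992, 0.91 and 1). Over all 22 arrays Hmox2 stayed between 7.13 and 7.79. Its mean signal was at percentile 41.9, a low level on this platform, so these values cannot show that Hmox2 was unchanged. The list of heme breakdown held 4 genes, of which 2, Hmox1 and Hmox2, were found on the array. Biliverdin reductase genes were not analysed here.

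Of 10 tested genes of heme synthesis, 7 had positive and 3 negative differences at GD8:15, with a median of 0.16 beside 0.00 for all probes, and 0 were called. Alad, which joins the building blocks of the pyrrole ring, had 0.37 ± 0.11 SE. Alas1, the rate-limiting first enzyme of heme synthesis in non-erythroid cells, had -0.60 ± 0.24. Tmem14c, a mitochondrial porphyrin transporter, had 0.41 ± 0.20, and Urod, a decarboxylase of the pathway, 0.19 ± 0.13. At GD9:12 3 of the 10 were positive.

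Among 19 tested genes of heme and iron transport and storage, 12 had positive differences at GD8:15 (median 0.06) and 13 at GD9:00 (median 0.17, beside 0.01 for all probes), and 0 were called at any stage. The transferrin receptor Tfrc, which brings iron into cells, had -0.37 ± 0.29 SE at GD8:15. The ferric reductase Cybrd1 had 0.19 ± 0.14. Slc11a1, a metal transporter of phagocytes, had 0.24 ± 0.10, with arsenic replicate 3 at 7.71 and the other arsenic arrays at 7.30 to 7.37. Its mean was 7.43 on arsenic arrays at GD8:15 and 7.14 to 7.19 in the other groups. Passing the filter on dim probes thus rested on the group where it was high, and the difference adds no support. Lrp1, the receptor that clears hemopexin-bound heme, had -0.72 ± 0.44, with arsenic replicate 4 at 7.20 and the other arsenic arrays at 9.45 to 9.62. At GD9:00 the largest difference of the list, 0.92 ± 0.36, belonged to Hpx, which encodes the heme carrier hemopexin and is named after its value was seen.

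The NRF2 targets are the antioxidant genes with which Hmox1 is usually grouped. Of 27 tested, 11 had positive differences at GD8:15 (median -0.01, beside 0.00 for all probes) and 0 were called. Sqstm1, an autophagy receptor, had 1.09 ± 0.38 SE (adjusted p = 0.544), Gclm, the modifier subunit of glutathione synthesis, 0.44 ± 0.19, and Gstm2, a glutathione transferase, 0.29 ± 0.12. Akr1b8, an aldo-keto reductase, had -0.63 ± 0.24. Nqo1, a quinone reductase used as a standard NRF2 readout and named after its value was seen, had -0.01 ± 0.083. Its mean log2 signal was only 7.23, beside a median of 7.87 over tested probes, so a small change may not show. At GD9:00 20 of 27 were positive and 7 negative, with a median of 0.19 beside 0.01 for all probes, and 0 called. Nqo1 had 0.20 ± 0.09 at that stage. Gpx2 had 0.52 ± 0.11 (limma adjusted p = 0.147) and Akr1a1 -0.93 ± 0.48, both named after their values were seen.

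**Figure D4:**
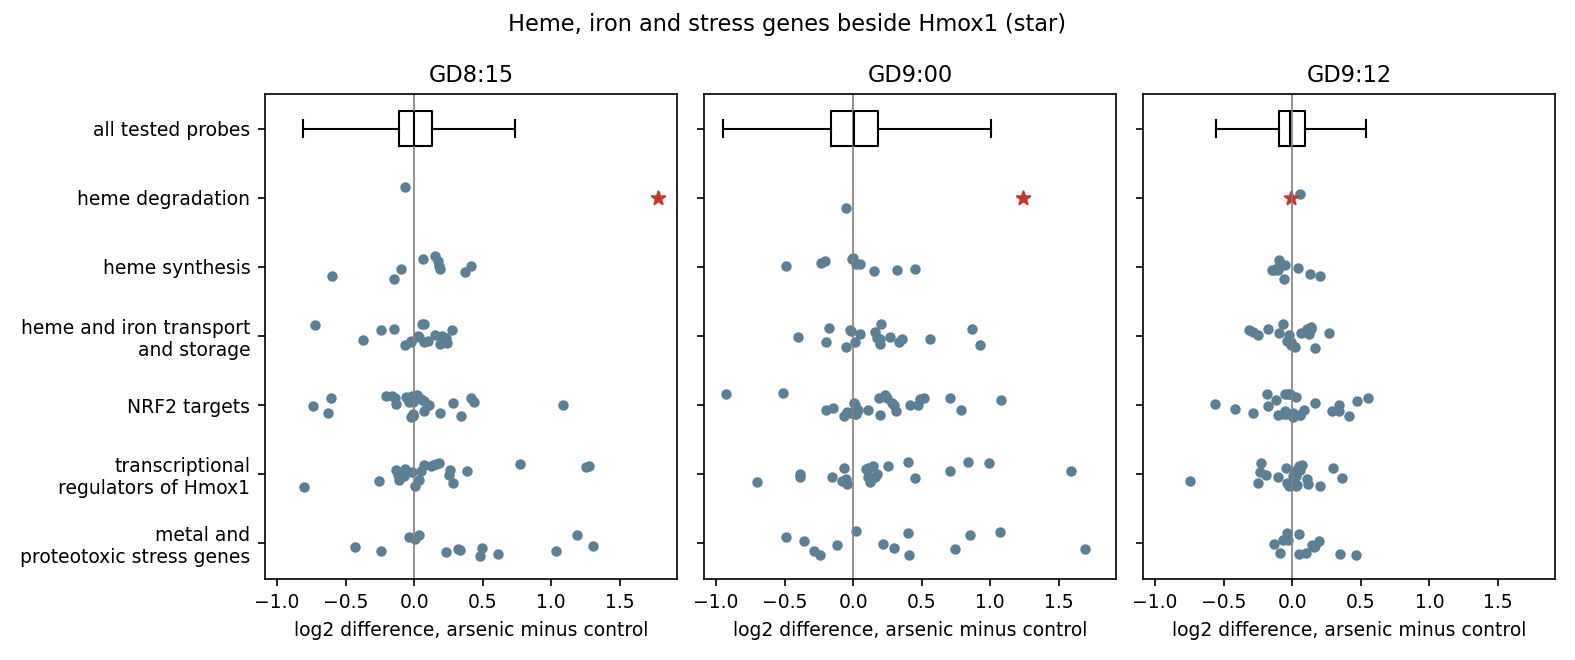
Log2 difference, arsenic minus control (x axis), of each tested gene (points) in 6 lists at the 3 stages, with Hmox1 as a star; the box and whiskers give the quartiles and the first and 99th percentiles of all tested probes. Hmox1 lies at 1.78, 1.24 and -0.01, above all 27 NRF2 targets at GD8:15.

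Of the transcription factors known to act on Hmox1 and the NRF2 ligase subunits Keap1 and Cul3, 23 genes were tested together, 15 with positive differences at GD8:15 (median 0.07) and 0 called. The transcripts of the central pair differed little between the arms: Nfe2l2, which encodes NRF2, had 0.07 ± 0.17 SE and Bach1 0.05 ± 0.18, both named after their values were seen. The largest differences belonged to Atf4, the effector of the integrated stress response (1.27 ± 0.31, adjusted p = 0.295, 4 of 4 arsenic arrays above the controls), and the AP-1 factor Jund (1.25 ± 0.35, 3 of 4). Nfe2l1, a relative of NRF2, had 0.25 ± 0.081, and the AP-1 factor Fos 0.28 ± 0.11. At GD9:00 15 of 23 were again positive, with a median of 0.12.

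In the metal and proteotoxic stress list, 11 of 14 genes had positive differences at GD8:15 (median 0.33), 9 at GD9:00 (median 0.26) and 9 at GD9:12 (median 0.07), and 0 were called. Chac1, which breaks down glutathione, had 1.30 ± 0.22 SE at GD8:15 (adjusted p = 0.0514) and 0.74 ± 0.24 at GD9:00. Hspa1a, an inducible HSP70 gene, had 1.04 ± 0.34 and 1.07 ± 0.37 at these stages, and its neighbour Hspa1b 1.19 ± 0.43 and 1.69 ± 0.46; both genes are nearly identical in sequence, so their signals may not be separate. The small heat shock gene Hspb1 had -0.43 ± 0.14 at GD8:15 and 0.40 ± 0.15 at GD9:00.

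The 5 probes whose log2 intensity was most like that of Hmox1 over the 22 arrays, by Pearson correlation, were Stc2, Chac1, Slc1a4, Eif4ebp1 and Hspa1a (r = 0.892, 0.855, 0.773, 0.773 and 0.771). Spearman's rho was 0.761, 0.738, 0.414, 0.683 and 0.213 in the same order, and the median r over 7282 probes was 0.0263. Stc2 encodes the secreted glycoprotein stanniocalcin 2, Slc1a4 a neutral amino acid transporter and Eif4ebp1 a repressor of cap-dependent translation. At GD8:15 Stc2 had 0.98 ± 0.17 SE, Slc1a4 1.09 ± 0.21 and Eif4ebp1 1.12 ± 0.51 (limma adjusted p = 0.0514, 0.0733 and 0.646). Choosing probes by correlation over arrays that include arsenic GD8:15 favours positive differences there, so these are no separate support.

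Arsenic arrays at GD8:15 did not rank alike for all of these probes. Hmox1 was lowest on replicate 3, where Chac1 was at its highest, 9.31, against 8.45 to 9.19 on the other arsenic arrays. Jdp2 was also highest on replicate 3, at 13.91 against 11.33 to 11.98. Eif4ebp1 shared the low value of Hmox1 there, at 9.38 against 11.29 to 11.85.

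Over the 18 arrays outside arsenic GD8:15, the most similar probes were Jdp2, Atf3, Chac1, Ddit3 and Txnip (r = 0.929, 0.909, 0.866, 0.856 and 0.85). Atf3 and Ddit3 encode transcription factors of the stress response, and Txnip an inhibitor of thioredoxin. These correlations rest on arsenic replicates 1 and 3 at GD9:00: without both, r over 16 arrays was 0.373, 0.292, 0.00499, -0.0883 and 0.498. Atf3 was 8.55, 7.39 and 9.07 on arsenic replicates 1 to 3 at GD9:00, and 7.29 to 7.40 on the controls. Ddit3 was 9.13, 7.54 and 8.59, against 7.23 to 7.88, and Jdp2 12.09, 9.69 and 12.94, against 9.61 to 10.04. Replicate 2 lay inside the control range for Atf3, Ddit3, Jdp2 and Chac1, as it did for Hmox1. The probes were chosen by correlation with Hmox1 over arrays that include these, so the shared pattern follows from the choice and is no separate result. Txnip differed in this: it was 8.03, 7.72 and 7.87 on arsenic replicates 1 to 3, all above the controls at 7.49 to 7.63.

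**Figure D5:**
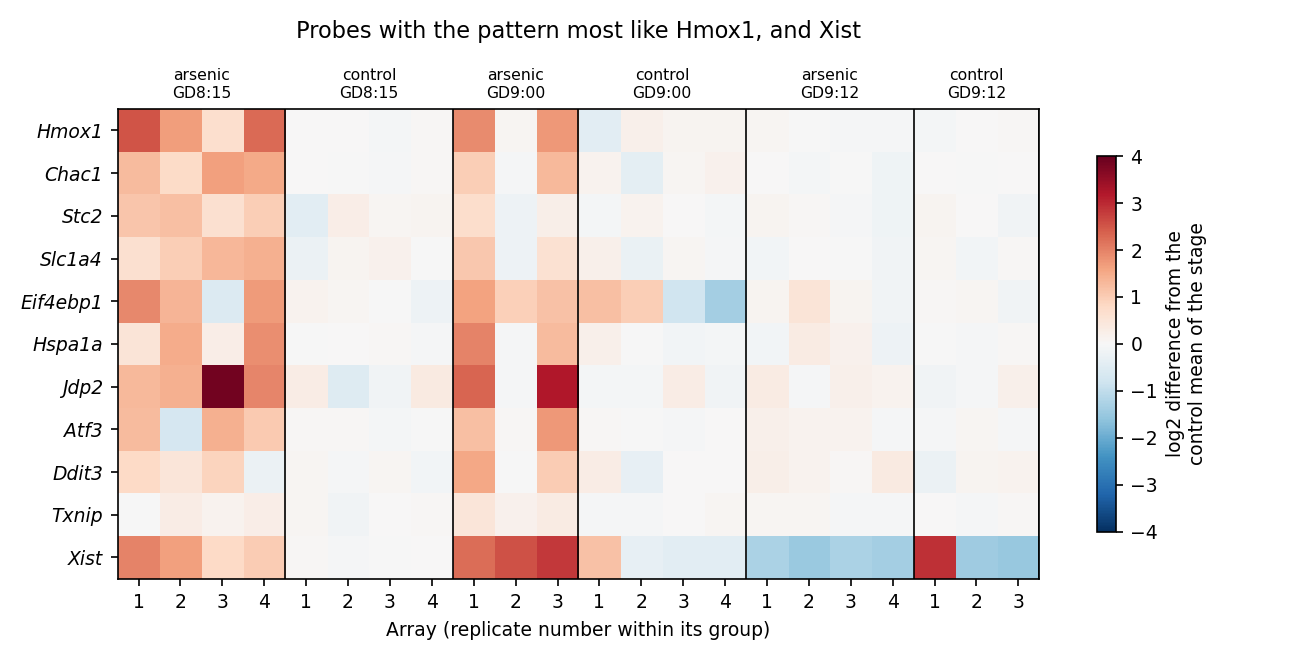
Log2 difference of each array (columns, replicate numbers) from the control mean of its stage, for Hmox1, the probes most like it and Xist (rows); red is higher, blue lower. Arsenic replicate 2 at GD9:00 is near the control mean for Hmox1, Chac1, Jdp2, Atf3 and Ddit3, and high for Xist. Rows other than Hmox1 and Xist were chosen for likeness to Hmox1, so a pattern shared with it follows from the choice.

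Macrophages and red cell precursors are cells in which Hmox1 can be abundant, and their markers were set beside it. The macrophage list had 5 of 9 tested genes with positive differences at GD8:15 (median 0.02), and its summed level was 3135 to 4275 on arsenic and 3189 to 3914 on control arrays. Its sum at GD9:00 was 2978 to 4514 and 2738 to 3269. The erythroid list had 7 of 11 positive at GD8:15 (median 0.15, 0 called), with sums of 7418 to 33980 on arsenic and 8524 to 12190 on control arrays, and Hba-x, an embryonic globin, had 1.06 ± 0.29 SE (adjusted p = 0.399). The other 4 erythroid genes were negative, Gata1 (-0.08 ± 0.14) and Nfe2 (-0.13 ± 0.17) among them. At GD9:12 erythroid sums were 21530 to 56600 on arsenic and 22250 to 51540 on control arrays. These sums weigh bright probes most, and the brightest was the globin gene Hba-a1. Its log2 means were 13.32 ± 1.43 on arsenic and 12.36 ± 0.35 on control arrays at GD8:15 (SD), and 15.01 ± 0.66 and 14.66 ± 0.79 at GD9:12. Endothelial markers had 9 of 10 positive at GD8:15 (median 0.13, 0 called), beside 50.1% of all probes. Their sums were 3336 to 3906 on arsenic and 3020 to 3352 on control arrays. Endoderm and yolk sac markers had 5 of 11 positive there (median -0.02, 0 called), with sums of 2949 to 3828 and 3073 to 3386. The part of any of these cell types in the Hmox1 result was not tested. In whole tissue a change in the cells present cannot be told apart from a change in RNA per cell.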

How the data were processed

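One-colour CodeLink arrays were hybridised with amplified, biotin-labelled RNA, per the labels' protocols. The deposited values are linear intensity values, scaled by the authors to a mean of 600 per array at GD8:15, 500 at GD9:00 and 1000 at GD9:12, as read from the values; scanner software and background correction are not given in the sources used here. Values of 1 or 2 were set to missing, log2 values were quantile normalised, and probes with values on at least 2 arrays per group and a mean above the lowest 25% were tested. All 22 arrays entered 1 model with 6 group means (R 4.3.3, limma 3.58.1), with Benjamini-Hochberg adjustment over all tested probes and a threshold of 0.05. Of the 10500 probes, 9378 carry 1 gene symbol, 8 several and 1114 none. Hmox1 was also tested alone by exact permutation. The pipeline was tested on simulated data. Over tested probes the SE of arsenic minus control had a median of 0.184 (GD8:15) or 0.198 (GD9:00 and GD9:12); the number of arrays limits the precision.

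Genes and lists were chosen with earlier results of these data known. Named are the genes of heme breakdown, up to 4 genes of lowest p at GD8:15 in each other list, genes with at least the Hmox1 difference there, the 5 closest probes in each correlation, Xist, Eif2s3y and Folr2; others are marked where they appear, apart from those that describe a marker list. Each gene stands by its brightest tested probe. Alternatives changed the scaling, placeholders, filters, offset, spread model, weights, the run of title numbers taken as a possible batch, and arrays. Figures were drawn with matplotlib 3.10.9.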

Additional observations from a re-analysis of the deposited data

Results flagged for a closer look

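In groups of 4 arrays, 1 array lay far from the other 3 in 13 of 132 groups examined over the 33 named probes, where chance gives about 1 in 20. For Hmox1 this was control replicate 1 at GD9:00, at 7.038 against 7.573 to 7.669 on the other controls (log2). Among arsenic arrays at GD8:15, Slc11a1 was high on replicate 3 (7.709), Lrp1 low on replicate 4 (7.199), Gstm2 high on replicate 4 (9.244), Gclm low on replicate 3 (7.253) and Gucy2c high on replicate 1 (15.83). Among arsenic arrays at GD9:12, Lrp1 was high on replicate 2 (9.682), Akr1b8 high on replicate 3 (9.232), Jund low on replicate 1 (12.11) and Fos high on replicate 4 (7.557). Among controls, Jdp2 was high on replicate 3 at GD9:00 (10.04), Xist high on replicate 1 at GD9:00 (8.713) and Eif2s3y high on replicate 3 at GD8:15 (7.79).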

How the results depend on the processing

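No paired analysis was possible because the labels give no replicate numbers. Array weights gave Hmox1 differences of 1.90 at GD8:15 (limma adjusted p = 0.047), 1.39 at GD9:00 (0.0344) and 1.08 averaged over stages (0.0129), with 4, 110 and 1 probes called at the 3 stages. A trended robust spread gave 1.78 (0.021) and 5 probes at GD8:15. Keeping placeholders called 3 probes at GD8:15, adding 50 called 3, and the running median called 4. With the scaling of the authors, which moved the median of all probes by 0.21, 0.43 and 0.02 at the 3 stages, the averaged effect was 1.09 (0.036), 1 probe was called at GD9:00, and GD9:12 minus GD9:00 in controls was 0.53 (0.163), beside a median of 0.79 over all probes in that contrast, so that Hmox1 relative to it was -0.26, the same direction as without that scaling. The difference at GD9:12 became 0.042 with that scaling (exact permutation p = 0.8; median of all probes 0.02) and with the running median. The fall in the arsenic arm between GD9:00 and GD9:12 was -0.85 with the scaling of the authors (0.081; -1.18 relative to the median of all probes), -1.38 without the filter (0.0588), -1.38 with the run of title numbers as a block (0.0846) and -1.17 with 50 added (0.0597); the block also gave -1.99 for GD9:12 minus GD8:15 (0.37) and called 2 probes at GD9:00. The causes of the other changes were not tested.

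With 1 array left out, the Hmox1 difference ran from 1.54 to 2.19 at GD8:15 (called in 2 of 22 fits), 0.92 to 1.82 at GD9:00 (called in 1), -0.045 to 0.014 at GD9:12 (called in 0) and 0.90 to 1.20 averaged (called in 2). The effect at GD8:15 minus that at GD9:00 ran from -0.041 (without arsenic replicate 2 at GD9:00) to 0.93. In the arsenic arm GD9:12 minus GD9:00 ran from -1.97 to -1.07, and GD9:12 minus GD8:15 from -2.52 to -1.86, called in all 22 fits. Called probes ranged from 0 to 5 at GD8:15, 0 to 35 at GD9:00 (35 without control replicate 2 there) and 0 to 1 at GD9:12. Subtracting the array floor was an alternative chosen after seeing the data. Control signals of Hmox1 lie near the array floor, which limits the precision of each fold.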
